A study of Sus scrofa with 20 samples.

Results

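Polycystin-1 silencing was compared directly with polycystin-2 silencing in LLC-PK1 cells, a proximal tubule epithelial line from pig, with MRTF-A left intact. The comparison rests on 8 of the 20 RNA-Seq libraries of the study, which are the 5 labelled siPC1 and the 3 labelled siPC2, and it covers all transcripts of the deposited count table. Both groups were transfected with a small interfering RNA and assayed 48 h later. siPC1 was used at 150 nM and siPC2 at 100 nM, each with its own siRNA sequence. The dose, the siRNA sequence and the target therefore cannot be told apart. The other libraries used here are 4 with a non-related siRNA (siNR, 200 nM in all), 4 siPC1+siMRTF-A and 4 siPC2+siMRTF-A. No group received siMRTF-A alone. A legend of the study gives other numbers of libraries for several of these groups and does not say which, so the assignment here follows the sample labels alone. The labels name no separate cultures behind the replicates, so the p-values measure the spread between libraries, which may be technical.

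Polycystin-1 is a large receptor-like membrane protein encoded by PKD1, and polycystin-2 is a cation channel encoded by PKD2. The pair assemble into a complex found at the primary cilium, and inherited loss of either one causes autosomal dominant polycystic kidney disease. MRTF-A is an actin-regulated coactivator of serum response factor. It moves into the nucleus when RhoA signalling polymerizes actin, and it drives cytoskeletal and matricellular genes. The direct comparison asks which transcripts separate the 2 ways of disturbing the complex, rather than which ones either siRNA moves away from the control.

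The table lists Ensembl transcript identifiers, and the files used here do not pair them with genes. The 15623 pig genes with symbols and the 30371 RefSeq genes at hand carry other kinds of identifier. The 0 matches to them were therefore fixed in advance and say nothing about the genes, and transcripts are given by identifier. The knockdown of PKD1 and PKD2, the proximal tubule markers of the line and the genes of the MRTF pathway were therefore not analysed here, and neither label could be checked against its target. Of 46295 transcripts, 11650 had a count of 0 in all 8 libraries. The tested transcripts were the 27702 that passed edgeR's filter on low counts, and 20212 of these averaged a normalized count of 50 or more over the 20 libraries. A normalized count is the estimated count scaled to the mean effective library size.

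The 8 libraries differed in depth and in how closely they resembled each other. Totals ranged from 4421001 to 46931983 estimated counts for siPC1 and from 11790504 to 36740001 for siPC2. A normalized count of 100 rested on 12.8 reads in siPC1 replicate 1 and on 32.2 in siPC2 replicate 2, the shallowest library of each group. In a principal component analysis of the 20212 transcripts, the first component (38.2% of the variance) set siPC1 replicate 1 at 239.6 and the other 7 libraries between -46.3 and -22.3. The second component (20.2%) held all 5 siPC1 libraries between 3.17 and 100.4 and all 3 siPC2 libraries between -146.1 and -18.3. siPC1 replicate 4 stood apart on the third component, at -114.1. Pearson's r between siPC1 libraries ranged from 0.724 to 0.908, between siPC2 libraries from 0.842 to 0.896 and across the groups from 0.729 to 0.875. Over the 7342 transcripts averaging at least 1000, siPC1 replicate 1 still had r of 0.792 to 0.906 with the other siPC1 libraries. For siPC1 replicate 4 it was 0.792 to 0.89, against 0.968 to 0.987 among siPC1 replicates 2, 3 and A2. The median SD of a transcript was 0.24 log2 units among siPC1 libraries and 0.15 among siPC2 libraries, and it was 0.21 for siPC1 without replicate 1. Without the 3 libraries that stood apart (siPC1 replicates 1 and 4, siPC2 replicate 2), an alternative chosen after seeing the data, the counts of called transcripts below became 1488 and 1528.

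PC1-silenced and PC2-silenced cells differed in 3153 transcripts, 11.4% of those tested, in nearly equal numbers each way. Of these, 1552 transcripts (5.6%) were higher in siPC1 and 1601 (5.78%) were higher in siPC2. A transcript was called where edgeR's quasi-likelihood test gave it an adjusted p (Benjamini-Hochberg) no larger than 0.05, its log2 fold change exceeded 0.6 in size and its normalized count averaged 50 or more. The typical difference was less than a doubling. The median log2 fold change (siPC1 minus siPC2) was 0.85 for the transcripts higher in siPC1 (quartiles 0.71 and 1.13) and -0.89 for those higher in siPC2 (quartiles -1.15 and -0.72), against 0.00 over all tested. An absolute log2 fold change above 1 was reached by 537 of the 1552 and by 591 of the 1601. At any fold, 6798 transcripts had an adjusted p of at most 0.05, and 9553 had an unadjusted p under 0.05.

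**Figure D1:**
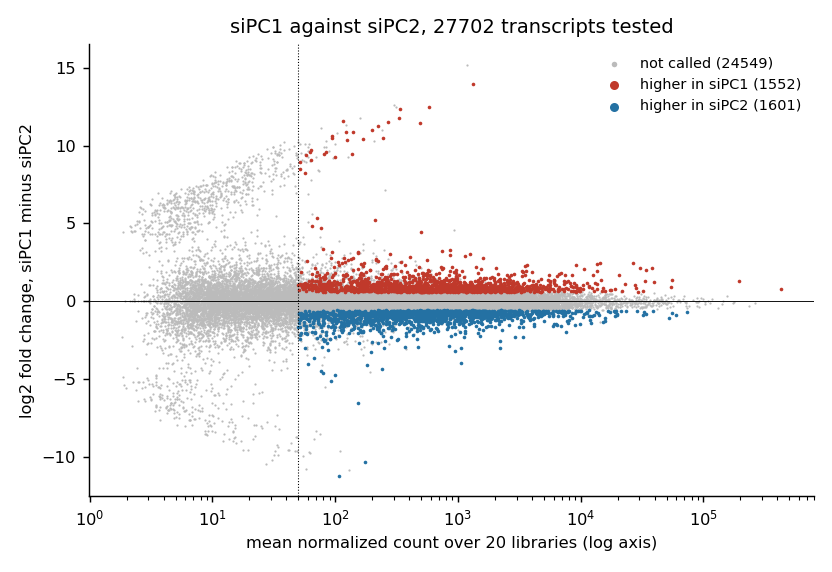
Log2 fold change (siPC1 minus siPC2) of each of the 27702 tested transcripts against its mean normalized count over 20 libraries, on a log axis. Red points are the 1552 called higher in siPC1, blue points the 1601 called higher in siPC2 and grey points those not called, and the dotted line marks the minimum mean count of 50. Called transcripts lie on both sides of 0 at every level, and the arms of points that run away from 0 toward higher counts hold transcripts listed at 0 in all libraries of a group.

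Most called transcripts separated every siPC1 library from every siPC2 library. The calls came from the contrast of these same libraries, so the separation is a description and no further support. Of those higher in siPC1, 1403 (90.4%) had their lowest siPC1 library above their highest siPC2 library, and of those higher in siPC2, 1515 (94.6%) showed the opposite order without overlap. Over all tested transcripts, 7470 (27%) had libraries that did not overlap, 3394 with siPC1 above and 4076 with siPC2 above. This wider set includes transcripts below the minimum mean count, which could not be called. The remaining called transcripts, 149 and 86, were called although single libraries overlapped.

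Both directions were found across the range of expression levels. The share of transcripts called was 12.9% at mean normalized counts between 50 and 100, reached 17.6% between 200 and 500 and was 15% at 5000 and above. In that top range, 102 transcripts were higher in siPC1 and 93 in siPC2. The median absolute log2 fold change of the called transcripts fell from 1.07 in the lowest range to 0.82 between 2000 and 5000.

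Libraries overlapped most often among the largest fold changes. Among transcripts higher in siPC1, 40 had a log2 fold change above 3, and 27 of them were listed at 0 in all 3 siPC2 libraries. Of these 27, 4 had counts in every siPC1 library, and the others were at 0 in a siPC1 library too. In all, 13 of the 40 (32.5%) were free of overlap, against 97 of the 98 transcripts between 1.5 and 2. Among transcripts higher in siPC2, 19 had an absolute log2 fold change above 3, of which 16 had no overlap and 3 were listed at 0 in all siPC1 libraries. With such transcripts set to the bound that 3 counts over the group allow, the medians above stayed at 0.85 and -0.89.

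In each direction 2 transcripts were named among those whose libraries did not overlap. One is the transcript with the largest fold change, and the other is the most abundant over the 8 libraries among those with an absolute log2 fold change above 1. Non-overlap was part of that choice. The exact permutation p over the 56 arrangements of 5 and 3 libraries was therefore fixed by it at 0.0357 for each of the 4, the smallest p the design allows (two-sided), and it is no support.

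ENSSSCT00000065088.2 had the largest fold change among transcripts higher in siPC1. Its normalized counts were 2155, 1800, 2363, 1558 and 2184 in siPC1 replicates 1, 2, 3, 4 and A2, and it was listed at 0 in siPC2 replicates 2, 3 and 4. The siPC1 mean of 2012 ± 326 (SD, n = 5) was at least 1399-fold higher than the level that 3 counts over the 3 siPC2 libraries would give, a log2 difference of at least 10.45 (edgeR's quasi-likelihood test, adjusted p = 3.05e-09). No siPC1 library came near 0. The siNR libraries held 1594, 1492, 1173 and 810, all above the siPC2 libraries and partly overlapping with siPC1. In the siMRTF-A libraries the transcript was present in both arms, at 2355, 2015, 2291 and 1620 in siPC1+siMRTF-A and at 882, 457, 1089 and 875 in siPC2+siMRTF-A, again without overlap. The log2 difference there was 1.33 ± 0.25 (SE, adjusted p = 0.0013), and the difference between the 2 comparisons passed its test (adjusted p = 6.21e-06). Salmon divides reads between transcripts that share sequence, so that a transcript listed at 0 is not shown to be a gene without reads. The estimated counts of this transcript were not whole numbers (274.675 in siPC1 replicate 1), so its reads counted as divided. How far such division entered the values of 0 in siPC2 was not tested.

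ENSSSCT00000064991.3 was the most abundant transcript of this kind higher in siPC1. It took 0.757%, 0.769%, 0.853%, 0.947% and 0.767% of all counts in siPC1 replicates 1, 2, 3, 4 and A2, and 0.346%, 0.331% and 0.32% in siPC2 replicates 2, 3 and 4. Its normalized counts were 262210, 303049, 320840, 364215 and 271788 in siPC1, and 126886, 123856 and 118065 in siPC2. Every siPC1 library lay above every siPC2 library, with means of 304420 ± 40907 (SD, n = 5) and 122936 ± 4482 (SD, n = 3). The log2 fold change was 1.31 ± 0.14 (SE, edgeR, adjusted p = 2.1e-06). Both groups lay above the siNR mean of 30411 ± 7249 (SD, n = 4), by 3.32 ± 0.14 log2 units for siPC1 and 2.02 ± 0.14 for siPC2 (SE), which are comparisons that share the siNR libraries. In the siMRTF-A libraries the means were 304894 ± 14102 and 162332 ± 12608 (SD, n = 4 each), a log2 fold change of 0.91 ± 0.13 (SE, edgeR, adjusted p = 9.46e-05). The difference between the 2 comparisons did not pass (adjusted p = 0.529).

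ENSSSCT00000099011.1 had the largest fold change among transcripts higher in siPC2. It was listed at 0 in all 5 siPC1 libraries and at normalized counts of 252, 315 and 322 in siPC2 replicates 2, 3 and 4. The siPC2 mean of 296 ± 38.8 (SD, n = 3) was at least 415-fold higher than the level that 3 counts over the siPC1 libraries would give (edgeR, adjusted p = 0.00597). The call was lost with limma voom and quality weights (adjusted p = 0.412). The control libraries were divided, at 90.8, 247, 206 and 0 in siNR replicates 1 to 4. All 4 siPC1+siMRTF-A libraries were again at 0, whereas siPC2+siMRTF-A replicates 1, 2 and 4 had 303, 258 and 140 and replicate 3 was at 0. Libraries of the same treatment thus ranged from 0 to 303 for this transcript. Its estimated counts were divided too (81.205 in siPC2 replicate 2), so its values of 0 carry the same limit as those of ENSSSCT00000065088.2.

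ENSSSCT00000054436.2 was the most abundant transcript of this kind higher in siPC2. Its normalized counts were 21307, 24123, 23399, 23828 and 21117 in siPC1 replicates 1, 2, 3, 4 and A2, and 41044, 50258 and 50547 in siPC2 replicates 2, 3 and 4. The siPC1 libraries lay close together, and all lay below the lowest siPC2 library. Means were 22755 ± 1433 (SD, n = 5) and 47283 ± 5405 (SD, n = 3), a log2 fold change of -1.05 ± 0.11 (SE, edgeR, adjusted p = 1.04e-06). Here the siNR mean was the highest of the 3, at 137360 ± 19889 (SD, n = 4), so that the transcript was lower than siNR with either siRNA, by -2.59 ± 0.10 log2 units for siPC1 and -1.54 ± 0.12 for siPC2 (SE). In the siMRTF-A libraries the means were 23235 ± 2672 and 36563 ± 2290 (SD, n = 4 each), a log2 fold change of -0.65 ± 0.11 (SE, edgeR, adjusted p = 0.000292).

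The same rule named the same 4 transcripts when only the 8 siPC1 and siPC2 libraries were fitted. Their values in the siMRTF-A libraries were also compared by an exact permutation test over the 70 arrangements of 4 and 4 libraries (two-sided). The p was 0.0286 for ENSSSCT00000065088.2, ENSSSCT00000064991.3 and ENSSSCT00000054436.2, the smallest this design allows. These p-values of 4 transcripts are unadjusted. Each had its 4 libraries of one arm apart from the 4 of the other. For ENSSSCT00000099011.1 it was 0.143, since siPC2+siMRTF-A replicate 3 was at 0 like the other arm.

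**Figure D2:**
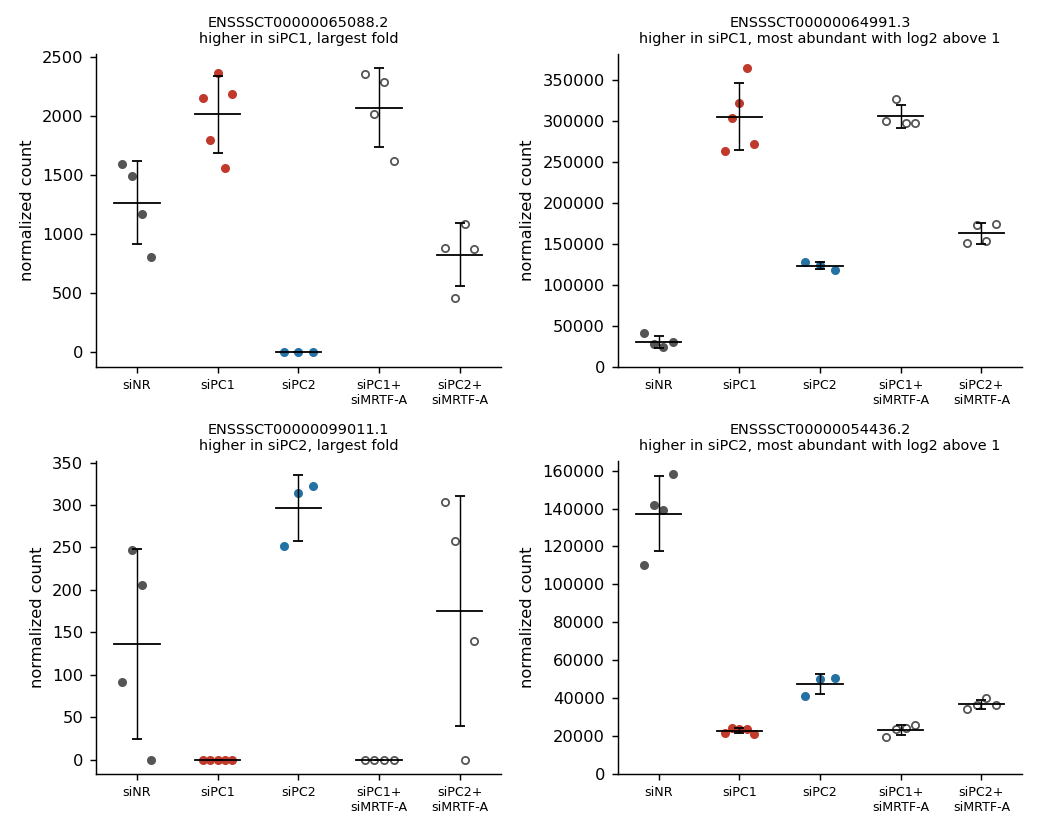
Normalized counts of the 4 transcripts by library (points) in the 5 groups, with the mean (bar) and SD (whiskers) and n = 4, 5, 3, 4 and 4 from left to right. In the upper panels every siPC1 library (red) lies above every siPC2 library (blue), and in the lower panels the order is the opposite, with siNR above both groups only at the lower right.

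The levels of the called transcripts in siNR cells showed in which arm the departure from the control was larger. These medians share the siNR libraries, and their difference is fixed by the choice of transcripts, so they are a description. Transcripts higher in siPC1 had a median log2 fold change against siNR of 0.74 in siPC1 (quartiles 0.16 and 1.35) and -0.14 in siPC2 (quartiles -0.83 and 0.47). In siPC1, 847 of the 1552 were called higher than siNR and 72 lower, where 15% and 13.2% of all tested transcripts were called. In siPC2, 306 were called higher and 472 lower, where the shares over all tested were 12% and 10.1%. The shares over all tested include transcripts below the minimum mean count, which could not be called.

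Transcripts higher in siPC2 lay mostly below siNR in PC1-silenced cells. Their median log2 fold change against siNR was -0.75 in siPC1 (quartiles -1.32 and -0.21) and 0.18 in siPC2 (quartiles -0.36 and 0.75). In siPC1, 882 of the 1601 (55.1%) were called lower than siNR and 110 (6.87%) higher, against 13.2% and 15% of all tested. In siPC2, 463 (28.9%) were called higher and 220 (13.7%) lower, against 12% and 10.1% of all tested, and 918 were not called. As above, all tested include transcripts that could not be called. The medians over all tested transcripts were 0.02 for siPC1 and 0.00 for siPC2.

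The same distinction was seen in how much of each library the transcripts took up. Those higher in siPC1 made up 11.7% ± 0.383 of the counts in siPC1 libraries (SD, n = 5), 5.81% ± 0.0302 in siPC2 (n = 3) and 5.04% ± 0.373 in siNR (n = 4). The siPC2 share was thus nearer to the control than the siPC1 share. It is a sum over transcripts that moved both ways, with 306 called higher and 472 lower than siNR in siPC2. It does not show that each stayed near the control. Those higher in siPC2 made up 4.57% ± 0.164 in siPC1, 8.45% ± 0.0561 in siPC2 and 7.88% ± 0.195 in siNR, and here too the siPC1 libraries lay farther from the control. The 10 most abundant transcripts of the first set held 3.61% ± 0.273 of the counts in siPC1 and 1.68% ± 0.0984 in siPC2 (SD).

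**Figure D3:**
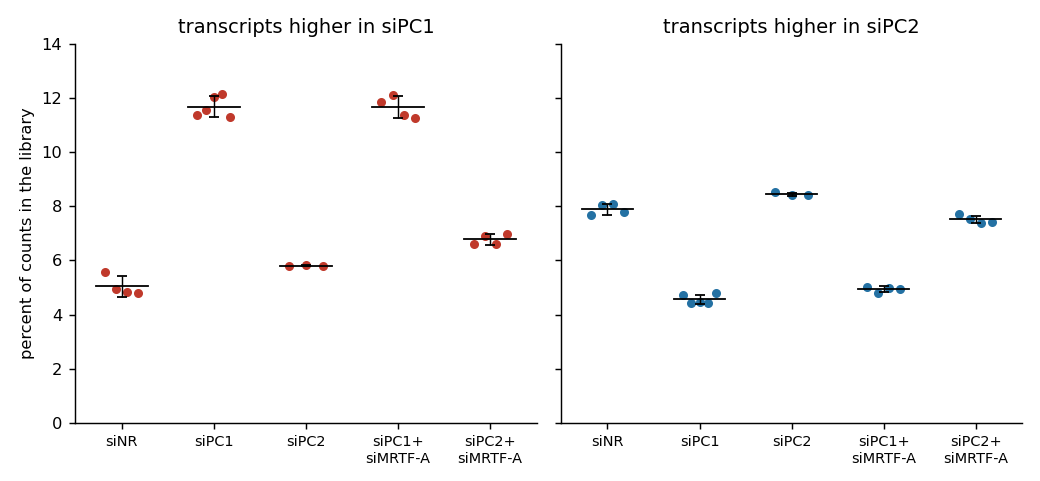
Share of each library's counts (percent, over the tested transcripts) taken by the 1552 transcripts higher in siPC1 (left) and the 1601 higher in siPC2 (right), by library (points), with the mean (bar) and SD (whiskers) in the 5 groups. siPC1 and siPC2 differ by the choice of the transcripts. The siMRTF-A groups, which are not part of the siPC1 and siPC2 contrast, keep the same order, at 11.7% and 6.78% on the left and 4.94% and 7.51% on the right.

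The same contrast was then taken between the libraries with siMRTF-A in each arm. They do not enter the contrast that chose the called transcripts, but they share its filter, scaling, estimate of spread and mean count. Cultures or days shared between these and the first 8 libraries are not given in the sources used here. Of the 1552 transcripts higher in siPC1, 1520 (97.9%) had a log2 fold change of the same sign in the siMRTF-A libraries, and 1573 of the 1601 (98.3%) higher in siPC2 did. Over the 20212 transcripts with a mean of at least 50, the sign was the same for 79.6%. The median log2 fold change was smaller with siMRTF-A in both directions, 0.54 (quartiles 0.39 and 0.80) and -0.59 (quartiles -0.81 and -0.40). Transcripts chosen for a large difference in some libraries tend to show a smaller one in others. The smaller medians are therefore favoured by the choice and are no test of siMRTF-A. The siMRTF-A libraries of each arm did not overlap for 1081 of the 1552 (69.7%) and 1263 of the 1601 (78.9%), against 7085 (25.6%) over all tested. All tested transcripts include those with a mean under 50, which could not be called, so the bases of these shares differ.

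Fewer transcripts passed the test with siMRTF-A. Between siPC1+siMRTF-A and siPC2+siMRTF-A, 1526 transcripts were called (5.51%), 718 higher in siPC1+siMRTF-A (2.59%) and 808 higher in siPC2+siMRTF-A (2.92%). Of the 1552 transcripts higher in siPC1, 563 (36.3%) were called in the same direction and 0 in the opposite one. Of the 1601 higher in siPC2, 667 (41.7%) were called in the same direction and 1 in the opposite one. Read from the other side, 78.4% of the 718 and 82.5% of the 808 had also been called without siMRTF-A. These transcripts had medians of 0.84 and -0.81 in the siMRTF-A contrast, by which they were called, and 0.93 and -0.97 between siPC1 and siPC2. The median absolute log2 fold change over the 20212 transcripts was 0.32 without and 0.24 with siMRTF-A, and the median SE was 0.15 in both. That SE rests on one model of all 5 groups, so it cannot show whether one group was more variable. The median SD of a transcript was 0.24 log2 units for siPC1 and 0.15 for siPC2. It was 0.15 for siPC1+siMRTF-A and 0.16 for siPC2+siMRTF-A. How far the wider spread of siPC1 raised the 0.32 was not tested. Across the 20212 transcripts, which are not independent of each other, the 2 sets of log2 fold changes had Pearson's r = 0.419 and Spearman's rho = 0.726.

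Each comparison was also fitted on its own 8 libraries alone, an alternative chosen after seeing the data, so that neither shared a library, filter, scaling or spread with the other. Between siPC1 and siPC2, 1256 transcripts (5.03%) were then higher in siPC1 and 1224 (4.9%) higher in siPC2. With siMRTF-A, 881 (3.52%) and 992 (3.96%) were called. Of the 1256, 516 (41.1%) were called in the same direction with siMRTF-A, as were 609 (49.8%) of the 1224, and 0 in the opposite one. The sign was the same for 98.6% and 98.9% of the called transcripts tested in both fits, against 79.7% of those with a mean of at least 50. Their median log2 fold changes were 0.87 and -0.90 without siMRTF-A and 0.55 and -0.61 with it, a decrease that the choice of transcripts again favours.

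The share of calls met again with siMRTF-A rose with the fold change up to a log2 of 2. For transcripts higher in siPC1 it was 24.7% between 0.6 and 1, 57.6% between 1 and 1.5 and 71.4% between 1.5 and 2. It was 76% of the 50 between 2 and 3, and 7.5% of the 40 above 3, the class in which 27 were listed at 0 in siPC2. For transcripts higher in siPC2 the shares were 28.4%, 64.2%, 70.8%, 60.4% and 42.1% in the same classes.

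**Figure D4:**
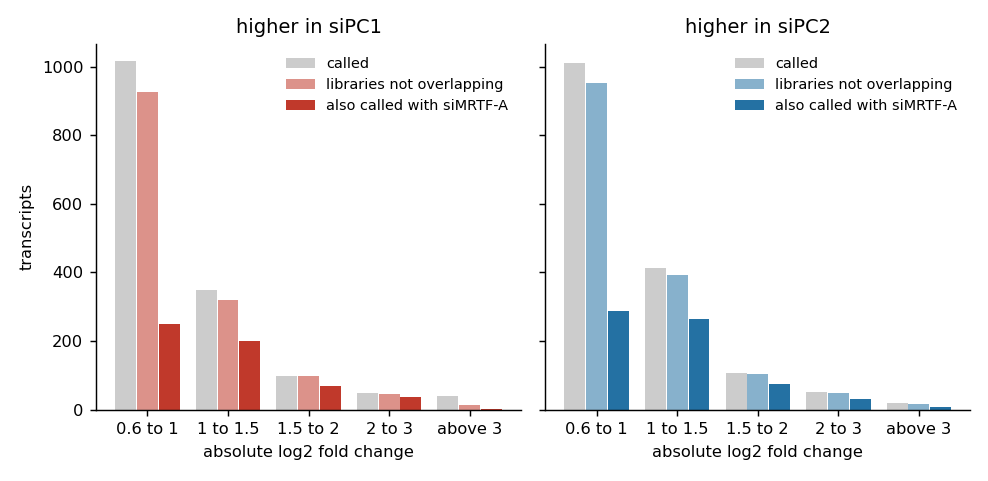
Number of called transcripts by absolute log2 fold change between siPC1 and siPC2, higher in siPC1 on the left and higher in siPC2 on the right. Grey bars are all called transcripts, light bars those whose libraries did not overlap and dark bars those also called in the same direction with siMRTF-A. Above 3 on the left, 40 transcripts were called, 13 did not overlap and 3 were called again.

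The difference between the 2 comparisons was tested directly for each transcript. It was called for 82 of the tested transcripts (0.296%, edgeR's interaction contrast), and 2582 had an unadjusted p under 0.05. The count depended on the tool, at 271 with DESeq2, 256 with limma voom and quality weights and 5 with a test against the fold threshold (glmTreat). It also changed with the libraries used. It was 51 without siPC1 replicate 3, 51 without siPC2 replicate 3, and 53, 38, 42 and 50 without siPC1+siMRTF-A replicates 1, 2, 3 and 4. It was 43, 47 and 40 without siPC2+siMRTF-A replicates 1, 2 and 4, and at most 96 in any such fit. Of the 82, 75 lay among the transcripts called between siPC1 and siPC2. The difference was smaller with siMRTF-A for 34 of these higher in siPC1 and 41 higher in siPC2, and larger for 0. The first comparison is part of the interaction, so this direction is favoured by the choice of transcripts.

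The siMRTF-A libraries also gave the change within each arm. For the 34 transcripts higher in siPC1, the median log2 change on adding siMRTF-A was 0.62 in PC2-silenced cells and -0.19 in PC1-silenced cells. Their median difference went from 1.48 to 0.53. For the 41 higher in siPC2, the median change was 0.59 in PC1-silenced cells and -0.17 in PC2-silenced cells, and their median difference went from -1.20 to -0.40. In both sets the larger median change was a rise in the arm where the transcript had been lower. These medians rest on the libraries that chose the transcripts and were not tested.

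**Figure D5:**
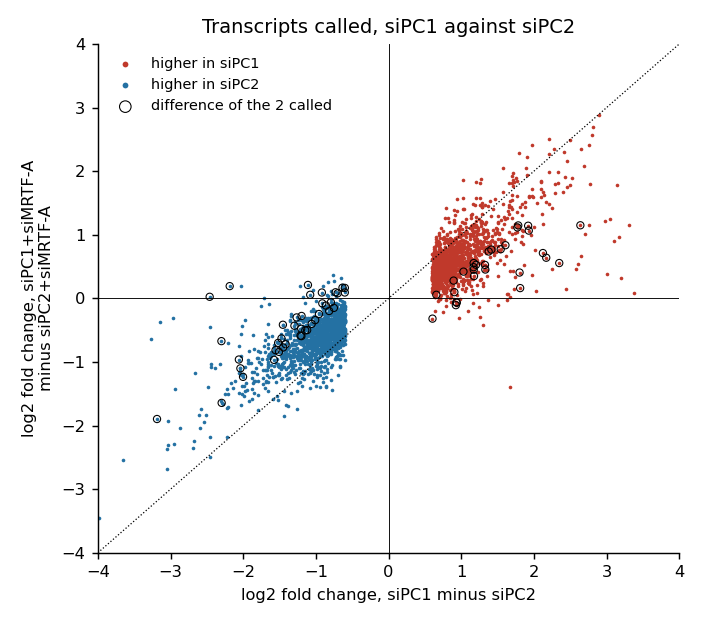
Log2 fold change between siPC1+siMRTF-A and siPC2+siMRTF-A (vertical) against that between siPC1 and siPC2 (horizontal) for the transcripts called between siPC1 and siPC2, higher in siPC1 in red and higher in siPC2 in blue. Black circles mark transcripts with a called difference between the comparisons, the dotted line marks equal values, and 42 transcripts beyond 4 log2 units are not drawn. Nearly all points keep their sign, and the circled ones lie closer to 0 on the vertical axis.

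A last comparison set apart the transcripts whose reads were not divided. Estimated counts were whole numbers (within 0.001) in all 8 libraries for 840 transcripts with a mean of at least 50. Of these, 217 were called (25.8%), 69 higher in siPC1 and 148 higher in siPC2, against 15.2% of the 19372 transcripts with divided counts, where 1483 were higher in siPC1 and 1453 in siPC2. The called transcripts with whole counts had no overlap between libraries in 96.8% of cases, and 51.2% were called in the same direction with siMRTF-A. For divided counts these shares were 92.2% and 38.1%. The whole-count transcripts were the less abundant of the 2 classes, with a median normalized count of 206 against 635. The named transcripts above all had divided counts.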

How the data were processed

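RNA was prepared as stranded poly(A) libraries from LLC-PK1 cells and sequenced as single or paired reads. Which library had which layout is not given in the sources used here. The authors trimmed reads with Trim Galore (0.6.3 in the submitters' processing notes) and deposited expected counts, estimated per transcript by Salmon 0.14.1 against Sscrofa11.1 coding sequences, without normalization. Untranslated regions were therefore not counted, and shared reads were divided by estimation.

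The estimated counts were rounded and tested in R 4.3.3 with edgeR 4.0.16 (filterByExpr, TMM, quasi-likelihood test), in one model of 5 groups over 20 libraries. Thresholds followed the study. Standard errors were derived from each contrast's F statistic. Alternatives used DESeq2 1.42.0, limma 3.58.1 (voom with quality weights), other scalings, filters and thresholds, a replicate block, thinning and left-out libraries. Permutation tests used scipy 1.17.1. Each procedure was tested on simulated data. No pair of libraries within siPC1 or siPC2 agreed within sampling noise (chi-square per degree of freedom at least 9.34). None was taken as a repeated sequencing of another, and each counted once. Division of reads or a differing read layout could also raise this value, so a repeated sequencing is not excluded. The chi-square cannot show that libraries came from separate cultures or RNA. The transcripts and groups described, and the naming rule (the largest fold change and the most abundant transcript above a log2 of 1 in each direction, without overlap of libraries), were chosen with earlier results of these data known.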

Additional observations from a re-analysis of the deposited data

Results flagged for a closer look

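In 26 groups of 4 or 5 libraries tested for a value far from the others (totals, the 4 named transcripts and the shares of counts), 1 was found, and chance alone gives about 1 in 20. The normalized count of ENSSSCT00000064991.3 was 325999 in siPC1+siMRTF-A replicate 2, while the other 3 libraries of that group lay between 297062 and 299192. The difference between the comparisons without and with siMRTF-A was called in the positive direction for 46 transcripts and in the negative direction for 36 (edgeR's interaction contrast). For ENSSSCT00000065088.2 its adjusted p was 6.21e-06 with siPC2 listed at 0, so no fold is given.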

How the results depend on the processing

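Fold thresholds mattered most. Without one, 3137 transcripts were higher in siPC1 and 3305 in siPC2, 1963 and 2135 with siMRTF-A, and 1616 and 1813 in both comparisons. Tested against the threshold (glmTreat), these counts were 402 and 526, 141 and 131, and 117 and 110. The difference between comparisons was called for 271 transcripts with DESeq2, 256 with voom, 171 without a fold threshold and 5 with glmTreat. Leaving out 1 library gave 1340 to 1630 transcripts higher in siPC1, 1447 to 1665 higher in siPC2, 616 to 711 and 720 to 778 with siMRTF-A, 499 to 592 and 608 to 726 in both, and 38 to 96 for the difference. Between siPC1 and siPC2 those fits kept 77.2% to 92.1% and 84.8% to 93% of the calls. Between siPC1 and siPC2, 0 transcripts were called in the opposite direction in any fit. Apart from the count for the difference with DESeq2 and voom, the other settings changed no count by more than 1.5 times. They included DESeq2 (1759 and 1678), library totals (1475 and 1606) and only the groups compared (1256 and 1224). Libraries thinned to the shallowest (1152 and 1125) and the 2 shallowest libraries left out (1544 and 1510) were also among them. By library totals, 579 and 932 transcripts were called with siMRTF-A. Same-numbered siPC1 and siPC2 libraries deviated together with Spearman's rho of -0.00, 0.10 and 0.15, and those with siMRTF-A with 0.55, 0.02, 0.01 and 0.09. Not every pair was above 0.1, so the numbers were not taken to pair the samples. With the replicate number as a block, 1512 and 1622 transcripts were called, and 87 for the difference. Of the named transcripts, ENSSSCT00000099011.1 lost its call with voom (log2 -8.61), and the other 3 kept theirs in all 20 alternatives. Low counts in siPC1 replicate 1 limit what can be seen of rare transcripts, and siPC2 has 3 libraries. Among abundant transcripts too, siPC1 replicates 1 and 4 stood apart from the other siPC1 libraries.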
